A study of Rattus norvegicus with 12 samples.

Results

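A set of 10 genes of mitosis was followed through the livers of rats fed naproxen, NO-naproxen or a drug-free diet: Mki67, Top2a, Ect2, Tpx2, Kif20a, Ccnb1, Ccnb2, Ccna2, Cdk1 and Plk1. They were selected on values measured in these arrays, the difference between naproxen and control livers among them, so their own differences are given as a description with no test. A gene was represented by a probe set whose platform annotation gave its symbol alone. Of the 10 genes, 9 had such a probe set, 1 each, among 19418 probe sets on the array and 13215 genes with a probe set of 1 symbol. Ccnb2, a B-type cyclin, had none and is only named here.

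The 12 rats were of the Sprague Dawley strain, and each was housed alone with free access to food. Control rats (4) ate a diet without drug, naproxen rats (4) a diet with naproxen at 400 mg/kg diet, and NO-naproxen rats (4) a diet with NO-naproxen at 550 mg/kg diet, all for 7 days. Naproxen blocks both cyclooxygenases and so the synthesis of prostaglandins, and NO-naproxen is naproxen with an added group that releases nitric oxide. Age and sex were not given in the sources used here. RNA of whole liver was hybridised to Affymetrix whole-transcript arrays, 1 array per rat. Levels are log2 of the deposited intensity plus 16. The number of arrays limits the precision. Array medians lay between 89.8 and 118.1 intensity units, and 5.87% to 11.1% of the values per array were under 16. As a check of the tissue label, albumin (Alb) measured 13.6 in controls, and all 7 measured hepatocyte markers lay above background as judged from olfactory receptor probe sets.

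Adult hepatocytes are mostly quiescent and divide after tissue loss or in response to some drugs. A cell that enters division makes A- and B-type cyclins, which activate the kinase Cdk1 and drive it into mitosis. Polo-like kinase 1 (Plk1), the spindle factor Tpx2, the kinesin Kif20a and the cleavage factor Ect2 then act on the spindle and on the final cleavage of the cell. Top2a untangles the duplicated DNA, and Mki67, the antigen of the Ki-67 stain, coats mitotic chromosomes. Many of these genes are transcribed together late in the cell cycle, through promoters with CCAAT boxes bound by NF-Y and with a cell cycle homology region (CHR) bound by the DREAM and MuvB complexes. In bulk liver, more cells in division and more RNA per dividing cell cannot be told apart, nor can hepatocytes be told from other dividing cells.

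Promoter sequences from RefSeq (build GRCr8, from 250 bases before to 50 after the gene's start) were found for 8 of the 10 genes, all but Tpx2 and Ccna2. They are shown for the 3 genes with the largest naproxen differences among those with a sequence, and for Cdk1, whose level hardly differed. Capitals mark TTTGAA, the core of the CHR, and CCAAT, the NF-Y box, on either strand (TTCAAA and ATTGG when read from the other strand); where both overlap the capitals run together. The Mki67 promoter lies at chr1:199952544-199952843 on the minus strand, that of Top2a at chr10:84473044-84473343 (minus), that of Ect2 at chr2:111966577-111966876 (minus) and that of Cdk1 at chr20:19265043-19265342 (plus).
Mki67: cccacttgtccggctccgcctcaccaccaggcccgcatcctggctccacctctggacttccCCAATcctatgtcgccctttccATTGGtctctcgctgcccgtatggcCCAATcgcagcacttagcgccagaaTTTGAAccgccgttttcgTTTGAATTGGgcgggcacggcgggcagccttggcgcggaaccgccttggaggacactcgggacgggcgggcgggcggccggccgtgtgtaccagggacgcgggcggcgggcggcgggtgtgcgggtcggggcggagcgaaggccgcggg
Top2a: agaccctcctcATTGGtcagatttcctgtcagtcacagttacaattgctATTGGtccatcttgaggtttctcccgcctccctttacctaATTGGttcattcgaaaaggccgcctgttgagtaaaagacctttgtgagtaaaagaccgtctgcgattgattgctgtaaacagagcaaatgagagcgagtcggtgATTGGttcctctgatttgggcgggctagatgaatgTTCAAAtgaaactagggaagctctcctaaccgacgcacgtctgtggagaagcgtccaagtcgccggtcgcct
Ect2: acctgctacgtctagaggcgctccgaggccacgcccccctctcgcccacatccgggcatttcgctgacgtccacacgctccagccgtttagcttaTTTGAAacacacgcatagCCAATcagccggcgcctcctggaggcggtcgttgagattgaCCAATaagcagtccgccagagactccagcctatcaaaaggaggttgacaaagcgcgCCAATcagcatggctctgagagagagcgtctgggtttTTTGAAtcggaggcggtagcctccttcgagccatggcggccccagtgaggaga
Cdk1: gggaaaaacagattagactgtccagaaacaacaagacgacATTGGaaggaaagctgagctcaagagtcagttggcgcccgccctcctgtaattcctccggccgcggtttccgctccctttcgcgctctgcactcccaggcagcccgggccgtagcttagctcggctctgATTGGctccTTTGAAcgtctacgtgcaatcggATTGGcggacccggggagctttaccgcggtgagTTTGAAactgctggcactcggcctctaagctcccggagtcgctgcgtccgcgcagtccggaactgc
TTTGAA was present in 6 of the 8 promoters, against 18.3% of all 33469 promoters in the table. CCAAT was present in 8 of 8, against 37.5% of all. Both letter strings occurred together in 6 of 8, those of Mki67, Top2a, Ect2, Plk1, Ccnb2 and Cdk1, against 7.41% of all. The E2F-like strings TTCCCGCC and TTTCCCGC were in 0 of 8, against 1.91% and 0.974% of all. Both strands were searched. In the Mki67 promoter 1 TTTGAA and 1 reversed CCAAT overlap. Ccnb1 and Kif20a carry CCAAT without TTTGAA. A match describes these letters only. Cdk1 holds both strings, as do Mki67, Top2a and Ect2.

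Naproxen livers had higher levels of 7 of the 9 measured genes than control livers, by 1.39-fold to 2.19-fold on this scale, while Cdk1 and Plk1 differed little. The median log2 difference over the 9 genes was 0.88, against -0.03 over all 19418 probe sets, and all 9 differences lay above 0, against 45.9% of all probe sets. After Benjamini-Hochberg adjustment of the limma fit 0% of probe sets were called (smallest adjusted p = 0.245), although 2458 were under 0.05 before adjustment. The criterion of the series design asks for p under 0.05 without adjustment and for 1.5-fold or more; it held for 6 genes, Mki67, Top2a, Ect2, Tpx2, Ccnb1 and Ccna2, where it called 0.875% of all probe sets as higher. It called 4.97% of probe sets as lower and none of the 9 genes. Since these genes were selected on this contrast, nothing is read from the counts. Dim signals limit the folds: the control means of Mki67, Ect2, Kif20a, Ccnb1 and Ccna2 were below the 95th percentile of olfactory receptor signals, taken here as background. The differences of Cdk1 and Plk1 were not above 0 throughout. Over 20 alternatives, Cdk1 ran from -0.18 without naproxen replicate 2 to 0.325 without naproxen replicate 1. Plk1 ran from -0.01 without control replicate 2 to 0.56 with each array's signal spread as a covariate.

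**Figure D1:**
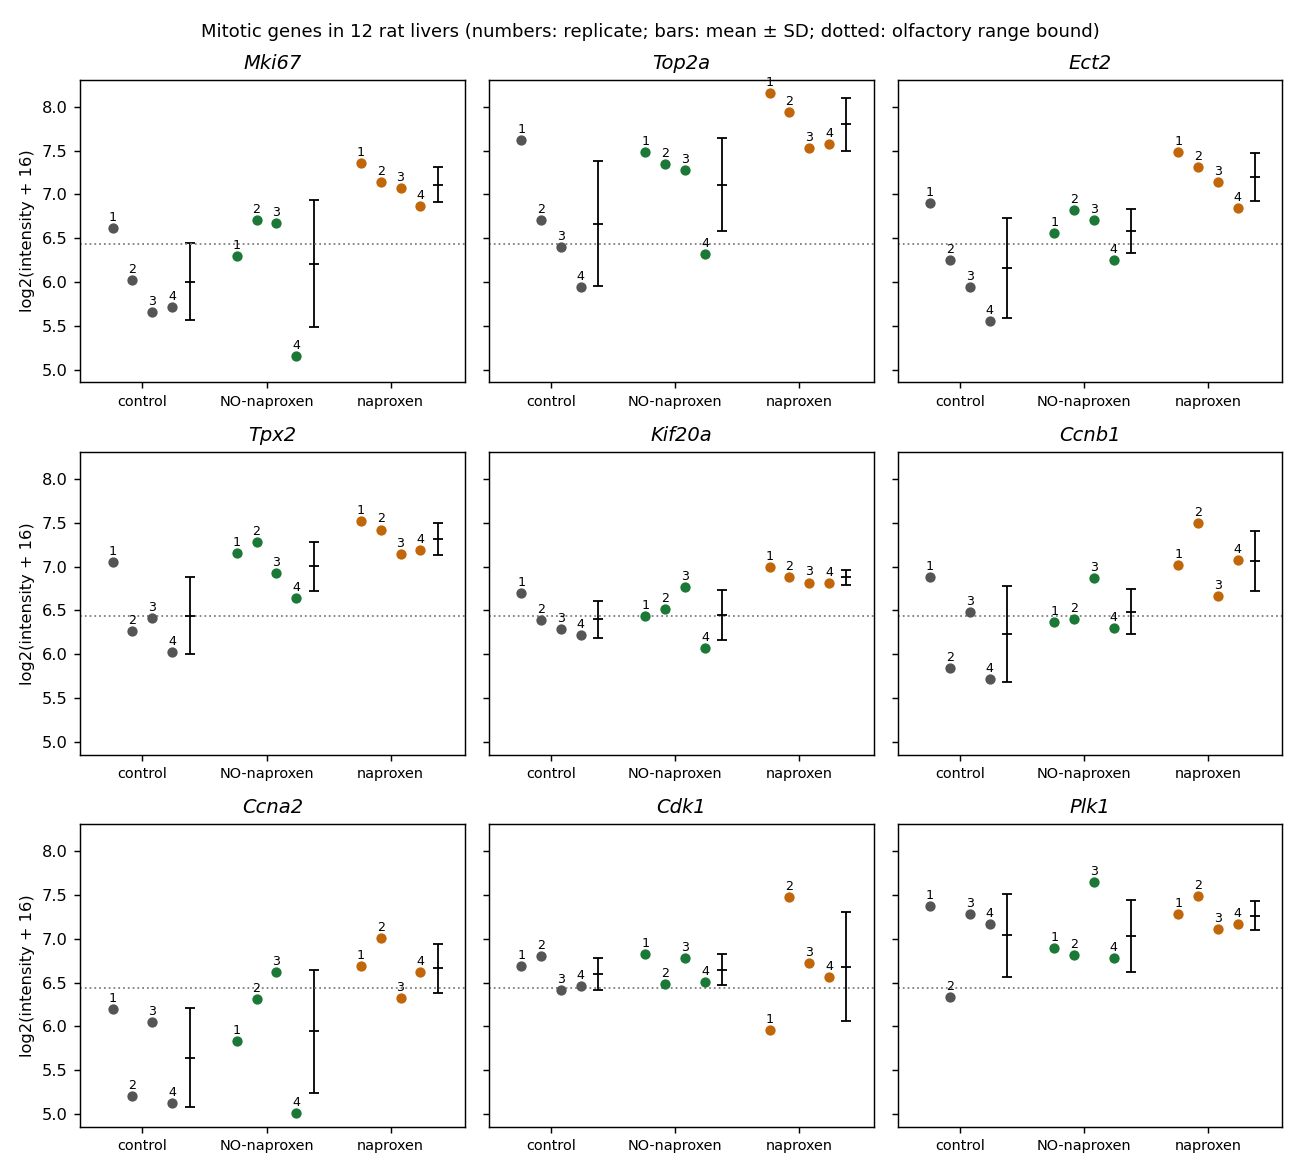
Level of each measured mitotic gene (log2 of intensity plus 16) in each of the 12 arrays, by diet, 4 rats per diet. The naproxen arrays lie above all others in Mki67 and Kif20a, control replicate 1 is the highest control in 8 of 9 genes and NO-naproxen replicate 4 is the lowest NO-naproxen array in 8 of 9.

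Mki67 (Entrez Gene 291234), the proliferation antigen, measured 6.62, 6.03, 5.66 and 5.72 in control replicates 1 to 4. It measured 7.36, 7.14, 7.08 and 6.87 in the naproxen replicates and 6.30, 6.71, 6.68 and 5.15 in the NO-naproxen replicates. All 4 naproxen arrays were above all other arrays, and NO-naproxen replicate 4 was below every other array. The group means were 6.01 ± 0.44, 7.11 ± 0.20 and 6.21 ± 0.73 (SD, n = 4) for control, naproxen and NO-naproxen. Naproxen exceeded control by 1.11 ± 0.30 log2 units (SE; 95% interval 0.47 to 1.75), or 2.15-fold. The 12-array mean lay just above 6.44, the 95th percentile of 970 olfactory and vomeronasal receptor probe sets, here called the olfactory range and taken as background. All 4 naproxen arrays, 1 control array and 2 NO-naproxen arrays stood above that bound.

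Top2a (Entrez Gene 360243), DNA topoisomerase II alpha, measured 7.62, 6.71, 6.39 and 5.95 in the controls. It measured 8.15, 7.94, 7.53 and 7.57 with naproxen and 7.49, 7.35, 7.28 and 6.32 with NO-naproxen. Control replicate 1 lay inside the naproxen range, so the groups overlapped, whereas all 4 naproxen arrays exceeded all 4 NO-naproxen arrays. The group means were 6.67 ± 0.71, 7.80 ± 0.30 and 7.11 ± 0.53 (SD, n = 4) in that order of diets. The naproxen difference was 1.13 ± 0.32 (SE; 95% interval 0.46 to 1.81), or 2.19-fold.

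Ect2 (Entrez Gene 361921), a factor needed for the cleavage furrow of dividing cells, measured 6.91, 6.25, 5.94 and 5.55 in the controls. It measured 7.49, 7.32, 7.14 and 6.84 with naproxen and 6.56, 6.83, 6.71 and 6.25 with NO-naproxen. Only control replicate 1 reached into the naproxen range, and the naproxen arrays lay above every NO-naproxen array. The means were 6.16 ± 0.57, 7.20 ± 0.28 and 6.58 ± 0.25 (SD, n = 4). The naproxen difference was 1.04 ± 0.25 (SE; 95% interval 0.51 to 1.57), or 2.05-fold against controls of which 1 of 4 exceeded the olfactory bound.

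Tpx2 (Entrez Gene 311546), which nucleates spindle microtubules and activates Aurora A, measured 7.06, 6.27, 6.41 and 6.02 in the controls. It measured 7.52, 7.42, 7.15 and 7.19 with naproxen, above all controls, and 7.16, 7.28, 6.93 and 6.65 with NO-naproxen. Both drug diets were therefore above controls 2 to 4, while control replicate 1 reached into the NO-naproxen range. The naproxen difference was 0.88 ± 0.22 (SE, 95% interval 0.42 to 1.34), or 1.84-fold against controls of which 1 of 4 exceeded the olfactory bound. Kif20a (Entrez Gene 361308), a kinesin of the central spindle, ran from 6.22 to 6.70 in controls, from 6.81 to 7.00 with naproxen and from 6.07 to 6.77 with NO-naproxen. Its naproxen arrays were above all others, although its difference of 0.48 ± 0.18 (SE; 95% interval 0.11 to 0.85; 1.39-fold) was less than 1.5-fold, and 1 of 4 controls exceeded the olfactory bound.

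The cyclins had the same order of means. Ccnb1 (Entrez Gene 25203), the partner of Cdk1 in mitosis, measured 6.88, 5.84, 6.48 and 5.72 in the controls and 7.02, 7.50, 6.67 and 7.07 with naproxen. With NO-naproxen it measured 6.37, 6.41, 6.88 and 6.30, within the control range. Its naproxen difference was 0.83 ± 0.25 (SE; 95% interval 0.30 to 1.37), or 1.78-fold. Above the olfactory bound were 2 of 4 controls, 4 of 4 naproxen arrays and 1 of 4 NO-naproxen arrays. Ccna2 (Entrez Gene 114494), the cyclin of S phase and early mitosis, measured 6.21, 5.20, 6.05 and 5.12 in controls, and 6.69, 7.01, 6.32 and 6.63 with naproxen. With NO-naproxen it measured 5.83, 6.31, 6.62 and 5.01, from below all controls to above them. Its naproxen difference was 1.02 ± 0.32 (SE; 95% interval 0.34 to 1.70). The 12-array mean of Ccna2, 6.08, lay within the olfactory range, and 3 naproxen arrays, 1 NO-naproxen array and 0 controls exceeded the bound, so no fold is given.

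The kinases had smaller differences. Cdk1 (Entrez Gene 54237), the central mitotic kinase, measured 6.70, 6.81, 6.42 and 6.47 in controls, 6.83, 6.49, 6.78 and 6.50 with NO-naproxen, and 5.96, 7.48, 6.73 and 6.57 with naproxen. Naproxen replicates 1 and 2 held the lowest and highest of all 12 values, and the other arrays lay between 6.42 and 6.83. The naproxen difference was 0.09 ± 0.25 (SE; 95% interval -0.44 to 0.61). Plk1 (Entrez Gene 25515), the kinase of spindle poles and cytokinesis, measured 7.37, 6.33, 7.28 and 7.17 in controls and 7.28, 7.49, 7.11 and 7.17 with naproxen. With NO-naproxen it measured 6.90, 6.82, 7.65 and 6.78, with replicate 3 above every other array. Its difference from control with naproxen was 0.22 ± 0.24 (SE; 95% interval -0.29 to 0.74), and control replicate 2 alone was low among the controls. Both intervals leave room for differences of up to 0.61 and 0.74 log2 units, so an absence of change was not shown.

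**Figure D2:**
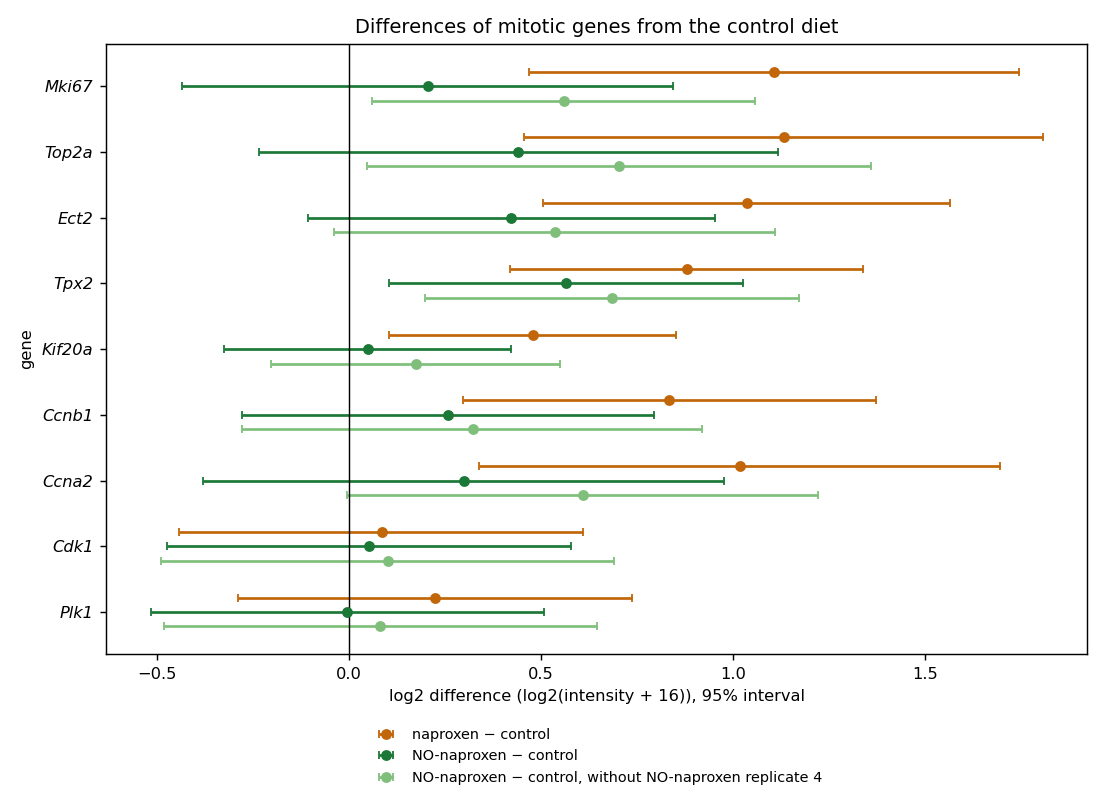
Log2 differences from the control diet for the 9 measured mitotic genes, with 95% intervals from the limma fit. They are given for naproxen, and for NO-naproxen with and without NO-naproxen replicate 4. The differences from control with naproxen reach 1.13 and those with NO-naproxen reach 0.57 in all arrays.

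NO-naproxen livers lay between the other diets for 8 of the 9 genes by mean, the exception being Plk1, whose NO-naproxen mean (7.04 ± 0.41, SD, n = 4) equalled that of controls (7.04 ± 0.48) to 2 decimals. The median difference from control over the genes was 0.26, against 0.00 over all probe sets, with 8 of 9 above 0 against 50.1% of all. Tpx2 had the largest difference, 0.57 ± 0.22 (SE; 95% interval 0.10 to 1.03; 1.48-fold). Top2a differed by 0.44 ± 0.32 and Ect2 by 0.42 ± 0.25, with intervals from -0.23 to 1.12 and from -0.11 to 0.95. Mki67 differed by 0.21 ± 0.30 (95% interval -0.43 to 0.84). This comparison shares its control arrays with that of naproxen. In all arrays the criterion held for 0 of the 9 genes, where it called 1.78% of probe sets as higher and 2.02% as lower, and 0% passed the adjusted test (smallest adjusted p = 0.468, by limma; 2011 probe sets under 0.05 before adjustment). The NO-naproxen arrays lay above all controls for 0 of 9 genes, against 2.0% of all probe sets.

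These values moved when single arrays were left out. NO-naproxen replicate 4 was the lowest of its group in 8 of the 9 genes, the exception being Cdk1, and for Mki67, Kif20a and Ccna2 it lay below every control. Averaged over the 9 genes, each centred on its 12-array mean, it stood at -0.58 and the other NO-naproxen arrays at -0.04, 0.06 and 0.23. Without it, the median NO-naproxen difference from control was 0.54. Mki67 then measured 6.56 ± 0.23 (SD, n = 3) and differed from control by 0.56 ± 0.23 (SE; 95% interval 0.06 to 1.06; 1.47-fold). Top2a differed by 0.70 ± 0.31 (95% interval 0.05 to 1.36; 1.63-fold) and Tpx2 by 0.69 ± 0.23 (95% interval 0.20 to 1.17; 1.61-fold). Kif20a, Ccnb1, Cdk1 and Plk1 differed by 0.17, 0.32, 0.10 and 0.08. The criterion then held for 2 genes, Top2a and Tpx2, where it called 3.54% of probe sets as higher, and the arrays were separated from controls for 0 of 9, against 4.99% of all. Leaving out NO-naproxen replicate 3 instead gave a median of 0.07.

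Control replicate 1 stood at the other end. It was the highest control in 8 of 9 genes, all but Cdk1, and it lay within the naproxen range in 5. Its mean over the 9 genes was 0.20, against -0.49, -0.37 and -0.70 for control replicates 2 to 4. All naproxen arrays were above controls 2 to 4 in 7 of 9 genes and above all controls in 4, Mki67, Tpx2, Kif20a and Ccna2, where 2.09% of all probe sets had the same separation. Without control replicate 1 the median naproxen difference was 1.08. The criterion then held for 6 genes, against 1.3% of all probe sets, and the arrays were separated for 7, against 3.72%. Nothing is read from these counts either, since the genes were selected on this contrast. The median NO-naproxen difference from control was 0.48 without this array, 0.15 without control replicate 2 and 0.11 without control replicate 4.

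Control replicates 3 and 4 had the narrowest signal distributions of the 12 arrays, with interquartile ranges of 2.0 and 1.95 log2 units against 2.07 to 2.62 in the others. Without both, only control replicates 1 and 2 remained, and replicate 1 was the highest control in 8 of 9 genes. The naproxen differences were then 0.79 for Mki67, 0.63 for Top2a and 0.62 for Ect2, with a median of 0.63. Their 95% intervals ran from 0.01 to 1.57, from -0.09 to 1.36 and from 0.07 to 1.17, and Cdk1 differed by -0.07. The NO-naproxen differences were then -0.11 for Mki67, -0.06 for Top2a and 0.01 for Ect2, with a median of 0.01. With the spread as a covariate the naproxen median was 0.85. The part of the narrow spread in the results was not tested.

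**Figure D3:**
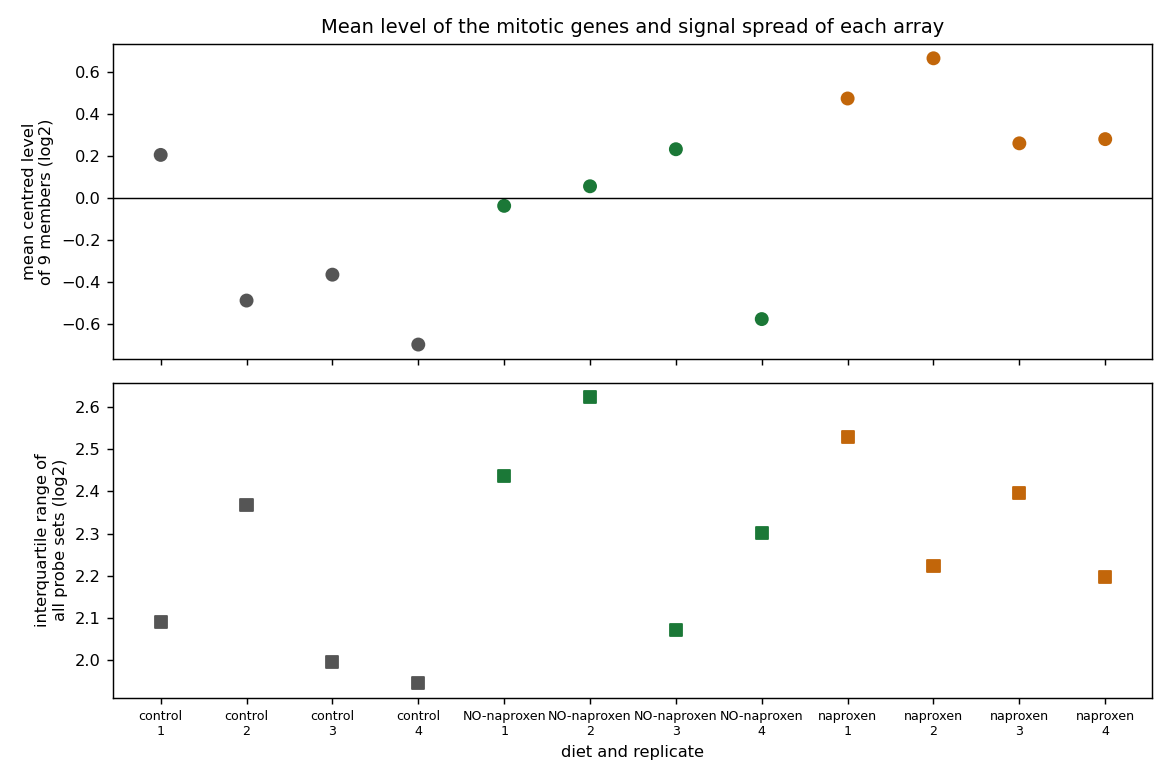
Mean level of the 9 mitotic genes in each array, each gene centred on its 12-array mean (log2 units), beside the interquartile range of the same array's signals (log2 units). The naproxen arrays rank 9 to 12 of 12, and control replicate 4 and NO-naproxen replicate 4 rank lowest.

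NO-naproxen livers had lower means than naproxen livers for all 9 genes, with a median difference of -0.58 against 0.06 over all probe sets, of which 64.1% were above 0. The doses differed by mass, 550 against 400 mg/kg diet, and molar doses were not compared. Compound and dose therefore cannot be told apart. Mki67 was lower by -0.90 ± 0.30 log2 units (SE; 95% interval -1.54 to -0.26), Ccna2 by -0.72 ± 0.32, Top2a by -0.69 ± 0.32 and Ect2 by -0.61 ± 0.25. The intervals for Cdk1 (-0.56 to 0.49), Plk1 (-0.74 to 0.28) and Tpx2 (-0.77 to 0.15) spanned 0. The criterion held for 4 genes, Mki67, Top2a, Ect2 and Ccna2, where it called 0.144% of probe sets as lower and 0.427% as higher, and 0% passed the adjusted test (smallest adjusted p = 1.0, by limma; 373 under 0.05 before adjustment). In Mki67, Top2a, Ect2 and Kif20a the arrays were separated, against 0.525% of all probe sets. The genes were selected partly on these same naproxen arrays, so nothing is read from the counts or from the common direction. Without NO-naproxen replicate 4 the median was -0.41 and the criterion held for 0 genes, against 0.185% of all. Only the interval of Mki67 (-1.05 to -0.05) then stayed below 0, and the difference of Cdk1 was 0.02.

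A group of 7 genes varied together from array to array. Each gene's level was correlated over the 12 arrays with the mean of the other 8, as a description, since the genes share arrays and were chosen on them. Pearson's r was 0.90 for Mki67 (Spearman's coefficient 0.89), 0.93 for Top2a (0.88), 0.91 for Ect2 (0.90), 0.88 for Tpx2 (0.83), 0.93 for Kif20a (0.97), 0.89 for Ccnb1 (0.91) and 0.92 for Ccna2 (0.94). It was 0.18 for Cdk1 (0.22) and 0.51 for Plk1 (0.49). With each group's mean taken out, the 7 genes kept r between 0.77 and 0.89, pooled over the diets. NO-naproxen replicate 4 and control replicate 1 stood apart from their groups, so covariation within each diet was not shown. A separate check left out, for each gene, the 2 arrays where the mean of the other 8 lay farthest from its median. With group means left in, r for these 7 then lay between 0.86 and 0.93. Control replicate 1 ranked 7 of 12 by the mean of the 9 genes, so that check did not bear on it. For all other probe sets, r with the mean of the 9 genes had a median of 0.00 and a 95th percentile of 0.54. With group means taken out these were 0.12 and 0.55.

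Of 9825 genes above the olfactory range and outside the set, Tacc3, a spindle protein, followed the mean of the 9 genes most closely (r = 0.93, Spearman's coefficient 0.90; r = 0.87 without the 2 farthest arrays). Next came the water channel Aqp1 (0.86, Spearman 0.68), Shisa5 (0.86, Spearman 0.73), the histone methyltransferase Suv39h1 (0.85, Spearman 0.76), the sinusoidal endothelial lectin Clec4g (0.84, Spearman 0.80) and the mitotic kinase Aurka (0.84, Spearman 0.69). With group means taken out the closest were Shisa5 (0.93), Lurap1l (0.91), Aqp1 (0.89), Tacc3 (0.88), Ly6e (0.87) and Adgre5 (0.87). With group means left in, r was lower for Lurap1l (0.66), Ly6e (0.56) and Adgre5 (0.76). It was 0.37, 0.28 and 0.58, also with group means left in, without the 2 farthest arrays, control replicate 4 and NO-naproxen replicate 4. The likeness with group means taken out was not recomputed without any array, so its dependence on single arrays was not tested. Tacc3 was 0.61 ± 0.23 log2 units (SE) higher with naproxen than in controls, and Aurka 0.27 ± 0.17. Shisa5 and Aqp1 differed by 0.17 ± 0.15 and 0.15 ± 0.15.

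Of 154 genes in 9 lists apart from the mitotic set, 108 had a probe set of 1 symbol and 31 of these had means within the olfactory range. With naproxen 5 of the 108 (4.63%) met the criterion as higher, Bub1, Ube2s, Hmmr, Tacc3 and Smc4, against 0.875% of all probe sets. As lower, 2 (1.85%) met it, Sgo1 and Ccne1, against 4.97% of all. Of the 108, 60 differences were above 0. With NO-naproxen 2 (1.85%) met it as higher, Tyms and Hgf, against 1.78% of all probe sets, and 0 as lower, against 2.02%, with 58 above 0. The adjusted test of limma called 0 in either comparison, with 16 and 9 of the 108 under 0.05 before adjustment, where the shares of all probe sets were 12.7% and 10.4%, and these lists were also chosen with earlier results known.

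**Figure D4:**
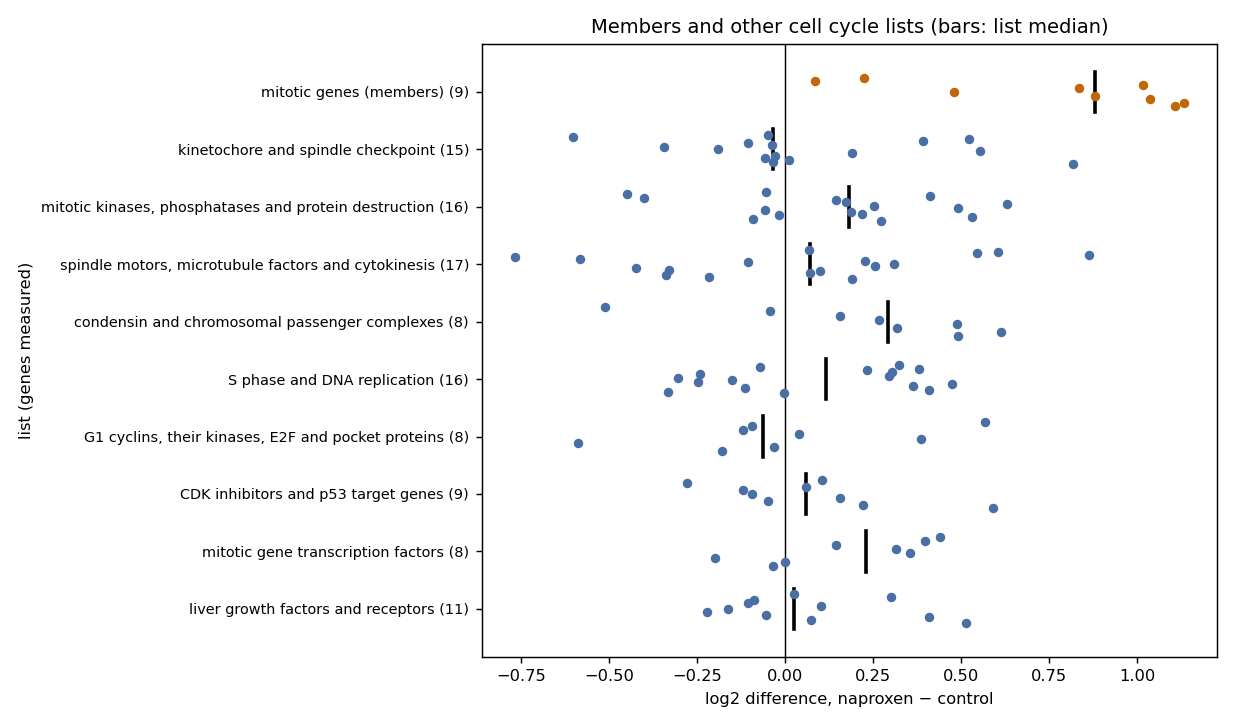
Log2 differences of naproxen from control for the 9 measured mitotic genes and the measured genes of 9 other cell cycle lists, with each list's median. Medians of the 9 other lists lie between -0.06 (G1 cyclins and E2F) and 0.29 (condensin and chromosomal passenger complexes).

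Among kinetochore and checkpoint genes (15 measured of 20) the median naproxen difference was -0.03, with 6 above 0 and -0.13 for NO-naproxen. The checkpoint kinase Bub1 differed by 0.82 ± 0.33 and the centromere protein Cenpk by 0.55 ± 0.18, while the cohesin protector Sgo1 differed by -0.60 ± 0.20; all 3 lay within the olfactory range. Among mitotic kinases and destruction factors (16 of 20) the median was 0.18, with 10 above 0, and the ubiquitin-conjugating enzyme Ube2s differed by 0.63 ± 0.25, again within that range. Cdc20, the activator of the anaphase-promoting complex, differed by 0.53 ± 0.25. Spindle and cytokinesis genes (17 of 25) had a median of 0.07, with 10 above 0, led by the hyaluronan-binding spindle protein Hmmr at 0.86 ± 0.21, in the olfactory range. Numa1, a spindle pole protein, differed by 0.55 ± 0.23 with naproxen and 0.54 ± 0.23 with NO-naproxen. Other genes of this list lay the other way: the spindle protein Spag5, within the olfactory range, differed by -0.58 ± 0.29 and -0.60 ± 0.29, the kinesin Kifc1 by -0.42 ± 0.21 and -0.44 ± 0.21, and Ckap2, named after its values were seen, by -0.77 and -0.66.

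Condensin and passenger complex genes (8 of 11) had a median of 0.29 with naproxen and 0.33 with NO-naproxen. The condensin ATPase Smc4 differed by 0.61 ± 0.21 and 0.47 ± 0.21, and the passenger scaffold Incenp by -0.51 ± 0.24 and -0.41 ± 0.24. Replication genes (16 of 26) had medians of 0.12 and 0.13. Thymidylate synthase (Tyms) was 0.47 ± 0.22 higher with naproxen and 0.59 ± 0.22 higher with NO-naproxen, and the sliding clamp Pcna 0.36 ± 0.21 and 0.37 ± 0.21. The replication licensing factor Cdc6 differed by -0.25 ± 0.17 and -0.38 ± 0.17, and Cdc45 by -0.31 ± 0.24 and -0.45 ± 0.24. G1 genes (8 of 16) had medians of -0.06 and 0.08, with cyclin E1 (Ccne1) at -0.59 ± 0.18 and -0.40 ± 0.18, and the pocket protein Rbl2 at 0.57 ± 0.23 and 0.53 ± 0.23. In the list of CDK inhibitors and p53 targets (9 of 12; medians 0.06 and -0.04) Cdkn1a, which encodes p21, differed by 0.59 ± 0.37 and 0.07 ± 0.37. Transcription factors of mitotic genes (8 of 13) had medians of 0.23 and 0.29, with the NF-Y subunit Nfya at 0.31 ± 0.17 and 0.35 ± 0.17. Of the factors named after their values were seen, Foxm1 differed by -0.03 and 0.01, Mybl2 by 0.00 and -0.15, and Lin9 by -0.20 and -0.30. Growth factors and receptors (11 of 11) had medians of 0.03 and 0.11, and hepatocyte growth factor (Hgf) differed by 0.51 ± 0.26 and 0.74 ± 0.26.

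Levels of markers of other liver cells are given beside these results, and their part in the mitotic genes' differences was not tested. No marker passed the adjusted test of limma in any comparison. Endothelial markers (2 measured of 7, Clec4g and Oit3) summed to 654.9 to 901.5 intensity units in controls, 1003 to 1068 with naproxen and 790.6 to 1025 with NO-naproxen, with no overlap between naproxen and control arrays, a separation that 2.09% of single probe sets also had. The defining markers Pecam1, Kdr, Stab2, Lyve1 and Cdh5 had no probe set of 1 symbol. Clec4g differed by 0.55 ± 0.22 log2 units and Oit3 by 0.42 ± 0.15 with naproxen, and neither met the criterion. Kupffer cell markers (9 of 10) were above 0 in 9 of 9 with naproxen and 8 of 9 with NO-naproxen, against 45.9% and 50.1% of all probe sets. Their sums were 3708 to 5499, 4191 to 6059 and 4590 to 7167 in the same order of diets. The Kupffer cell sums overlapped between the diets. With naproxen 0 of the 9 markers met the criterion, where it called 0.875% of all probe sets as higher and 4.97% as lower. With NO-naproxen 1 met it as higher, Ptprc at 0.67 ± 0.27, where 1.78% of all probe sets did. Stellate cell markers (5 of 7) were above 0 in 5 of 5 with naproxen, against 45.9% of all probe sets. Their sums were 1277 to 2211, 1753 to 2526 and 1838 to 2663, which overlapped. The pericyte marker Rgs5 differed by 0.71 ± 0.20. It was the 1 stellate list gene to meet the criterion as higher with naproxen, where 0.875% of all probe sets did.

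T and NK cell markers (6 of 9, 3 of them within the olfactory range) summed to 548.4 to 662.2, 595.6 to 747.4 and 605.5 to 876.1. B cell markers (2 of 6) and neutrophil markers (4 of 5) all lay within that range, with B cell sums of 107.9 to 183.3, 88.33 to 141.2 and 107 to 156.9. Neutrophil sums were 115 to 202.4, 66.06 to 202.1 and 113.7 to 204.1. Erythroid markers (2 of 6) summed to 783.4 to 1087, 801.6 to 904.1 and 756.6 to 972.6, and cholangiocyte markers (2 of 5) to 124.5 to 161.2, 138.2 to 175.9 and 129.8 to 143.8. Hepatocyte markers (7 of 8) summed to 52380 to 60650, 52750 to 56540 and 54460 to 62780. With naproxen 3 of the 7 were above 0. Of them 1 met the criterion as higher, Tdo2 at 0.615 ± 0.154 (SE), where 0.875% of all probe sets did. No marker of any list was at 0 on any array.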

How the data were processed

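Liver RNA of 12 rats was measured, 1 array each. The authors' deposited values are linear intensities per probe set. The submitters' processing notes name Affymetrix Expression Console 1.1.1 and rn4; the sources used here do not give the normalization. Of 19418 probe sets, 13327 carried 1 symbol, 620 several and 5471 none. Levels are log2(intensity + 16), which understates changes of dim probe sets. Groups came from the labels. All arrays entered 1 limma 3.58.1 fit (R 4.3.3; lmFit and eBayes, 2-sided, Benjamini-Hochberg over all probe sets) with 3 diets, and the step was tested on simulated data. Standard errors and 95% intervals come from this fit. Alternatives were constants of 1 and 64, median centring, quantile normalization, leaving out the dimmest 30%, 2 groups only, array weights, a trended robust variance, the replicate number as a block, the spread as a covariate, averaging probe sets (each gene had 1), and each array left out. Leaving out the 2 narrowest arrays was added after seeing the data. The genes and lists were chosen with earlier results of these data known. Named genes are the set, up to 3 of each list with the smallest p per drug comparison, and the 6 closest by correlation, over all arrays and with group means out; not every named gene is printed. Promoters came from a RefSeq table of build GRCr8. Figures used matplotlib 3.10.9 in Python 3.11.15.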

Additional observations from a re-analysis of the deposited data

Results flagged for a closer look

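Plk1 in NO-naproxen replicate 3 measured 7.65, and the nearest other array of that diet 6.90. The gap was 0.865 of the group's range, beyond Dixon's 95% critical value for 4 arrays. It was 1 of 30 group values tested, and chance alone marks about 1 in 20.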

How the results depend on the processing

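With 4 arrays per diet, no probe set passed the adjusted test in the reported fit of any comparison. Over 23 alternatives the number that passed ran from 0 to 3 for naproxen against control and from 0 to 4 for NO-naproxen against control when arrays were left out in turn, and was 2 with array weights for the latter. For NO-naproxen against naproxen it was 0 throughout. Over 20 alternatives the median difference of the 9 genes ran from 0.59 to 1.08 for naproxen against control, from 0.01 to 0.54 for NO-naproxen against control and from -0.67 to -0.40 for NO-naproxen against naproxen. With naproxen 5 to 7 genes met the criterion. For NO-naproxen against control the count, 0 as reported, was 1 with a constant of 1, 1 with median centring, 1 with quantile normalization, and 0 to 3 with arrays left out. It was 3 (Top2a, Ect2 and Tpx2) without control replicate 1. For NO-naproxen against naproxen, 4 as reported, it was 2 with a constant of 1, 0 with a constant of 64 and 0 to 5 with arrays left out. The number of all probe sets past the criterion ran from 191 to 2973 (1135 as reported), from 154 to 2570 (738) and from 8 to 331 (111). Median centring moved the median of all probe sets for naproxen from -0.03 to 0.08. Single-gene differences stayed within 1 pooled SD in 178 of 179, 178 of 179 and 179 of 179 values. These counts include values that could not move. Using 2 groups only, the trended robust variance, the replicate block and averaging probe sets leave group differences unchanged. Leaving out the dimmest probe sets also leaves a retained gene's difference as it was. The exceptions were Ect2 without the 2 narrowest arrays, 0.62 with naproxen and 0.01 with NO-naproxen. The cause was not tested. Same-numbered replicates correlated at -0.38 to 0.48, with 4 of 12 pairs over 0.1, so they were not taken as paired; 3 of 12 arrays correlated best with their own number. The replicate number as a block cannot change group differences here, since each diet holds each number once, and medians stayed 0.88, 0.26 and -0.58. With that block 6, 0 and 4 genes met the criterion, and 0 probe sets passed the adjusted test.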
